A study of Mus musculus with 6 samples.

Results

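The 10 circadian clock genes Arntl, Clock, Cry1, Per1, Per2, Per3, Ciart, Nr1d1, Nr1d2 and Dbp were followed in liver RNA sequencing of Nogo knockout mice and wild-type littermates. They were taken by symbol from a table of 54232 genes, and all 10 were found and passed the low-count filter, as did 13304 genes in all. Knockout mice carried Nogo-/- (Nogo is the protein of Rtn4, a reticulon of the endoplasmic reticulum), the controls were WT, and all 6 animals were 8 weeks old and ate normal chow. The title names insulin signalling as the study's question. Each genotype had 3 livers, here called knockout 1, 2 and 4 and wild type 2, 4 and 11 after the numbers in the labels. The labels give neither the hour of dissection nor the lighting and feeding schedule, nor do they say which part of Rtn4 was removed or in which cells. The clock's phase in each liver is therefore not known, and only its own transcripts bear on it.

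The mammalian clock is a feedback loop of transcription. BMAL1 (the protein of Arntl) and CLOCK bind E-box sequences and switch on the Per and Cry genes, Ciart, Nr1d1, Nr1d2 and Dbp. PER, CRY and CIART proteins then repress BMAL1 and CLOCK, and REV-ERBalpha and REV-ERBbeta (Nr1d1 and Nr1d2) repress Arntl, Clock and Cry1. In the liver of a mouse kept in a light and dark cycle, transcripts of Arntl, Clock and Cry1 peak between night and dawn, while those of Nr1d1, Dbp, Per1, Per3, Ciart and Nr1d2 peak by day or near dusk, and Per2 somewhat later. In such a mouse, abundant Dbp with little Arntl and the reverse belong to different points of the cycle. Whether the livers studied here differed in phase was not tested.

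The promoter windows of 4 of the genes are shown as examples of the letters that this scheme turns on. RefSeq windows (GRCm38.p6) from 250 bases before to 50 bases after an annotated start were matched by symbol for 9 of the genes, all but Per2, in 13 windows. Capitals mark the E-box CACGTG, its variant CACGTT, the D-box TTATGTAA that DBP and its relatives bind, and TAGGTCA, the core of the REV-ERB element; each was searched on both strands.
Ciart, chr3:95882179-95882478, minus strand: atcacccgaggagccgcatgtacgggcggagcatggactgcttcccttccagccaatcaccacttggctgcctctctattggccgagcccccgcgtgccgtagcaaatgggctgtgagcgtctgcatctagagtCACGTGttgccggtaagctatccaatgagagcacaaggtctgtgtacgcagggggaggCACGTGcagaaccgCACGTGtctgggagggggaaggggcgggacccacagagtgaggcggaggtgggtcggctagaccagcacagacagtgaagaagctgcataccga
Per3, chr4:151044616-151044915, minus strand: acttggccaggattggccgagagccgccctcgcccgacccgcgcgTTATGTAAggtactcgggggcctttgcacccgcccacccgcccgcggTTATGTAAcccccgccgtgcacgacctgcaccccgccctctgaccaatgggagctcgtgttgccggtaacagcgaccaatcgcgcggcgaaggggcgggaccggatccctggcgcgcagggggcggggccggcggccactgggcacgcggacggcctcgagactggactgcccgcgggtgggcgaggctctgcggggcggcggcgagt
Arntl, chr7:113207261-113207560, plus strand: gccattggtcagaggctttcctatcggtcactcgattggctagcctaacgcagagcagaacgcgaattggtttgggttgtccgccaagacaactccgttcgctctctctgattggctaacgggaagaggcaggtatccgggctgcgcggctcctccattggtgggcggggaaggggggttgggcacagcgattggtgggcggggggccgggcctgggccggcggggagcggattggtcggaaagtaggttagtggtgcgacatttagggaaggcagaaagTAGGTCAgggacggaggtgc
Cry1, chr10:85185005-85185304, minus strand: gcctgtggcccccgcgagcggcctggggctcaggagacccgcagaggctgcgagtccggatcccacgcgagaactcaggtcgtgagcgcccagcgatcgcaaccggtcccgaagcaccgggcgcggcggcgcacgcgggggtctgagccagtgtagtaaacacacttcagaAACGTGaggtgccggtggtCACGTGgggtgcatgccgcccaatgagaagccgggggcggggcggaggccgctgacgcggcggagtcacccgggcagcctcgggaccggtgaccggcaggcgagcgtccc

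Ciart held 3 copies of CACGTG in its window, the nearest ending 39 bases before the start. Per3 held 2 copies of TTATGTAA, at -205 to -198 and -158 to -151. Arntl held TAGGTCA at 31 to 37 bases into the transcript. In Cry1, CACGTG at -60 to -55 stood beside the reverse complement of CACGTT at -79 to -74. Of the windows not shown, Per1 held CACGTG at -166 to -161 and Nr1d1 the reverse complement of CACGTT at -28 to -23. The windows of Clock, Nr1d2 and Dbp held no match. Over all 32851 windows of this length, CACGTG was found in 7.15%, CACGTT in 4.68%, TTATGTAA in 0.938% and TAGGTCA in 2.61%. Wider searches added no capitals: TTANNTAA, which takes in every TTATGTAA, was found in 6% of all windows, and TGGGTCA in 3.98%. Among the 13 windows of the clock genes, 3 held CACGTG, 2 CACGTT, 1 TTATGTAA (and so TTANNTAA), 1 TAGGTCA and 0 TGGGTCA. Such matches describe letters in a window and were not tested for binding.

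The libraries held 17654412 to 18118811 counts in knockout and 17568223 to 20902369 in wild type. Levels are CPM, the count of a gene scaled to a common library size after TMM, a correction for library composition. Rtn4 had 4.63, 8.22 and 4.69 CPM in knockout 1, 2 and 4, against 40.5, 52.8 and 56.0 CPM in wild type 2, 4 and 11, a difference of -3.08 (SE 0.26, edgeR adjusted p = 0.00101) with no overlap between the labelled genotypes. The mitochondrial share of counts was 28.6%, 19.7% and 11.8% in knockout 1, 2 and 4, against 6.17% to 6.90% in wild type. All 5 hepatocyte markers (Alb, Ttr, Apoa1, Apob and Tat) were present, with a summed level of 74037 to 104212 CPM in knockout and 81552 to 98766 CPM in wild type. Markers of B cells summed to 15.9 to 25.6 CPM in knockout and 7.17 to 10.9 CPM in wild type, and those of T and NK cells to 6.98 to 15.4 CPM in knockout and 2.51 to 3.72 CPM in wild type; 4 of 5 and 3 of 4 tested rose. Neutrophil markers summed to 4.09 to 10.4 CPM in knockout and 1.42 to 1.87 CPM in wild type, and 2 of 2 tested rose. The 5 endothelial markers summed to 62.9 to 95.7 CPM in knockout and 104 to 132 CPM in wild type, with 3 of them called lower. Over all tested genes 8.76% were called higher and 8.29% lower. Of 5 tested in each list, hepatocyte, Kupffer cell, stellate and pancreas markers had 0 called. Cholangiocyte markers had 1 lower (Epcam), and erythroid markers had 1 higher (Hba-a2) and 1 lower (Alas2). No list of cell type markers had a gene at 0 in all libraries. In such bulk tissue, fewer cells of a type and less RNA per cell cannot be told apart.

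Of the 10 clock genes, 1 passed the test between knockout and wild type. Ciart, the repressor also called CHRONO, rose in knockout by 1.54 on the log2 scale, while Arntl, Clock, Cry1, the 3 Per genes, both Rev-erb genes and Dbp did not pass the test. The test was edgeR's quasi-likelihood F test over all 13304 genes, and calls were made where p, adjusted by Benjamini-Hochberg, was under 0.05. Over all tested genes 8.76% were called higher, 8.29% lower and 17.0% either way, so 1 of 10 called higher and 0 of 10 called lower is near or below the background and no result about the group. At an unadjusted p under 0.05 there were 4 of the 10, namely Ciart, Per3, Clock and Cry1, and DESeq2 called 1 higher and 0 lower. Over all 13304 genes, 4531 had such a p in edgeR with DESeq2 size factors, so these 4 are no result about the group either. DESeq2 called 1372 genes higher and 1374 lower. The median log2 fold change of the 10 was 0.25, against 0.012 over all tested genes. Knockout and wild-type levels did not overlap in 2 of the 10, Ciart and Clock, against 38.9% of all tested genes.

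**Figure D1:**
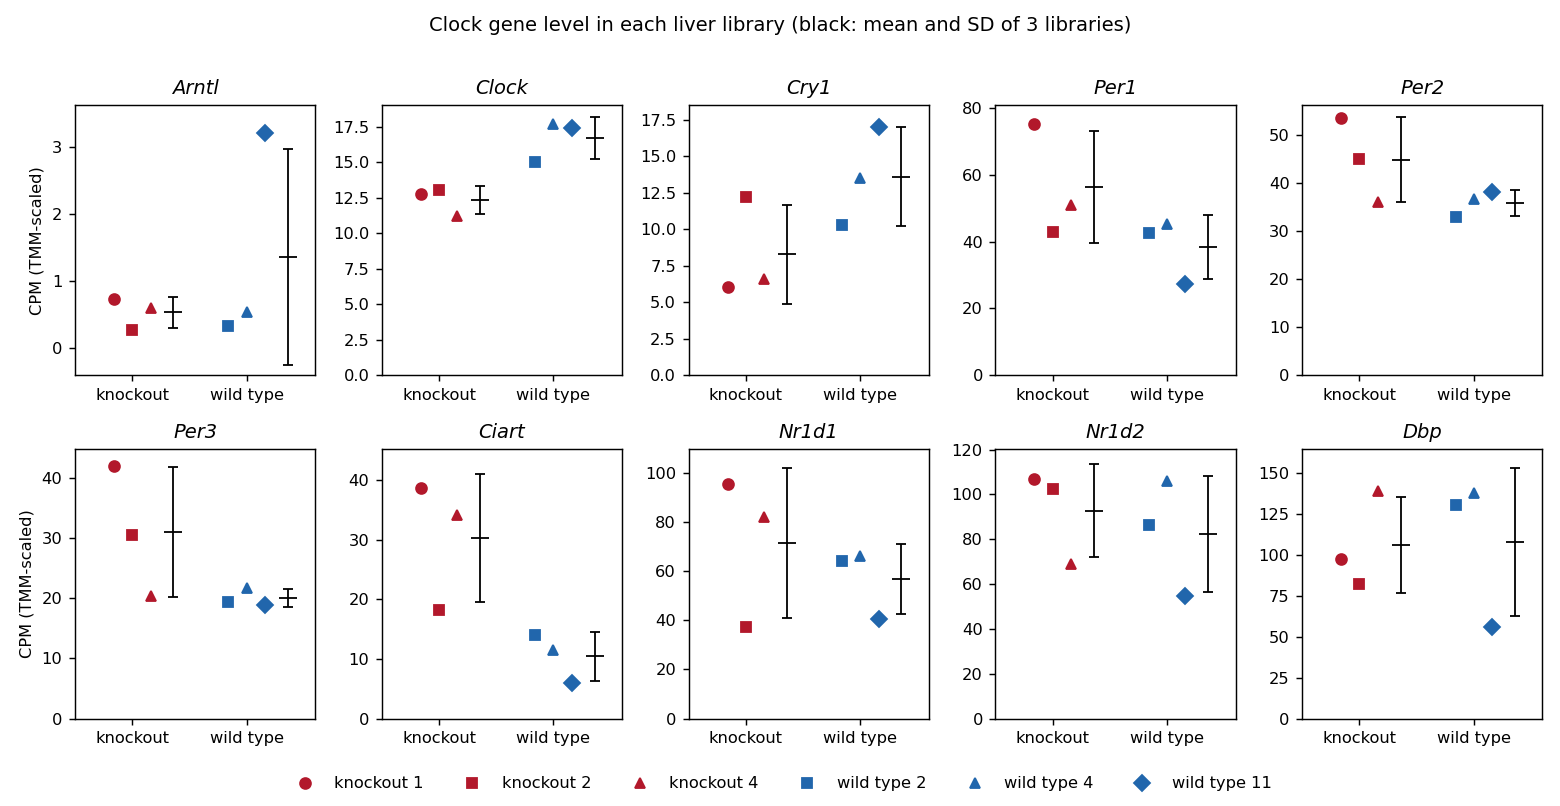
Level of each clock gene in CPM after TMM scaling (vertical axes, each with its own range) in 3 knockout (red, left) and 3 wild-type (blue, right) liver libraries; marker shapes give the library number, and the black dash and bar give the mean and SD. Ciart and Clock show no overlap between genotypes, and wild type 11 lies far above every other library in Arntl, at 3.20 CPM.

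The positive arm of the loop was represented by Arntl and Clock, which encode the partners of the activating heterodimer. Arntl (ENSMUSG00000055116, chromosome 7, 113207465 to 113314126, plus strand, mm10) had 0.728, 0.268 and 0.602 CPM in knockout 1, 2 and 4, from 11, 5 and 10 counts. In wild type 2, 4 and 11 it had 0.332, 0.533 and 3.20 CPM, from 7, 10 and 69 counts. Wild type 11 alone was high, and the other 5 libraries lay together whatever their genotype. Its 95% Poisson interval was 2.49 to 4.06 CPM, whereas the upper bounds of the other 5 reached at most 1.30 CPM; these intervals cover counting error only. The log2 fold change of -1.37 (SE 0.80, edgeR adjusted p = 0.253) rested on that library, and was 0.27 (adjusted p = 0.789) without wild type 11. It passed (-1.41, edgeR adjusted p = 0.0441) where all genes were kept, whatever their counts.

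Clock (ENSMUSG00000029238, chromosome 5, 76209868 to 76304792, minus strand) had 12.8, 13.05 and 11.3 CPM in knockout 1, 2 and 4, against 15.0, 17.7 and 17.4 CPM in wild type 2, 4 and 11. Every knockout library was below every wild-type library, and the spread within each genotype was small, with means of 12.4 ± 0.969 and 16.7 ± 1.48 CPM in knockout and wild type (SD, n = 3 each). The difference of -0.43 (SE 0.18, 95% interval -0.83 to -0.04) did not pass after adjustment (edgeR adjusted p = 0.112). Within the wild types, Clock in wild type 11 did not stand apart as Arntl did. The related activator Npas2, which can take the place of CLOCK, had 0 to 5 counts per library and was not tested. It had 4, 3 and 1 counts in wild type 2, 4 and 11, so it was not high in wild type 11.

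Among the repressors that close the loop, only Ciart passed the test. Ciart (ENSMUSG00000038550, chromosome 3, 95878503 to 95882251, minus strand) had 38.6, 18.1 and 34.1 CPM in knockout 1, 2 and 4, from 583, 338 and 567 counts. Wild type 2, 4 and 11 had 14.0, 11.5 and 5.90 CPM, from 294, 215 and 127 counts. Knockout 2 came closest to the wild types, and wild type 11 was the lowest library. The means were 30.3 ± 10.7 and 10.4 ± 4.13 CPM in knockout and wild type (SD, n = 3 each). The log2 fold change was 1.54 (SE 0.34, 95% interval 0.78 to 2.29, edgeR adjusted p = 0.0163). Ciart was higher in 3 of 3 knockout libraries than in any wild type. Without wild type 11, its lowest library, the value was 1.24 (adjusted p = 0.0414).

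The call on Ciart was lost when wild type 4 was left out (1.59, edgeR adjusted p = 0.0501) or knockout 1 was (1.32, 0.0657), with knockout 4 alone against wild type (1.71, 0.118) and with the mitochondrial share as a covariate (1.37, 0.547). That last fit called 0 of all genes, with 1146 at an unadjusted p under 0.05. Among the knockouts, Ciart had 38.6 CPM at a mitochondrial share of 28.6% (knockout 1), 18.1 CPM at 19.7% (knockout 2) and 34.1 CPM at 11.8% (knockout 4). The lymphocyte and endothelial marker sums given above also separated the genotypes, and their part in the rise of Ciart was not tested. Of the 50-base words of Ciart, 11.9% occur in the pseudogene Gm9176, which held 0 to 6 counts per library. The antisense gene C920021L13Rik overlaps the Ciart locus but shares 0 exonic bases with it, and it rose as well, to 1.68 to 3.38 CPM in knockout, against 0.9498 to 1.21 CPM in wild type (1.22, edgeR adjusted p = 0.0474).

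**Figure D2:**
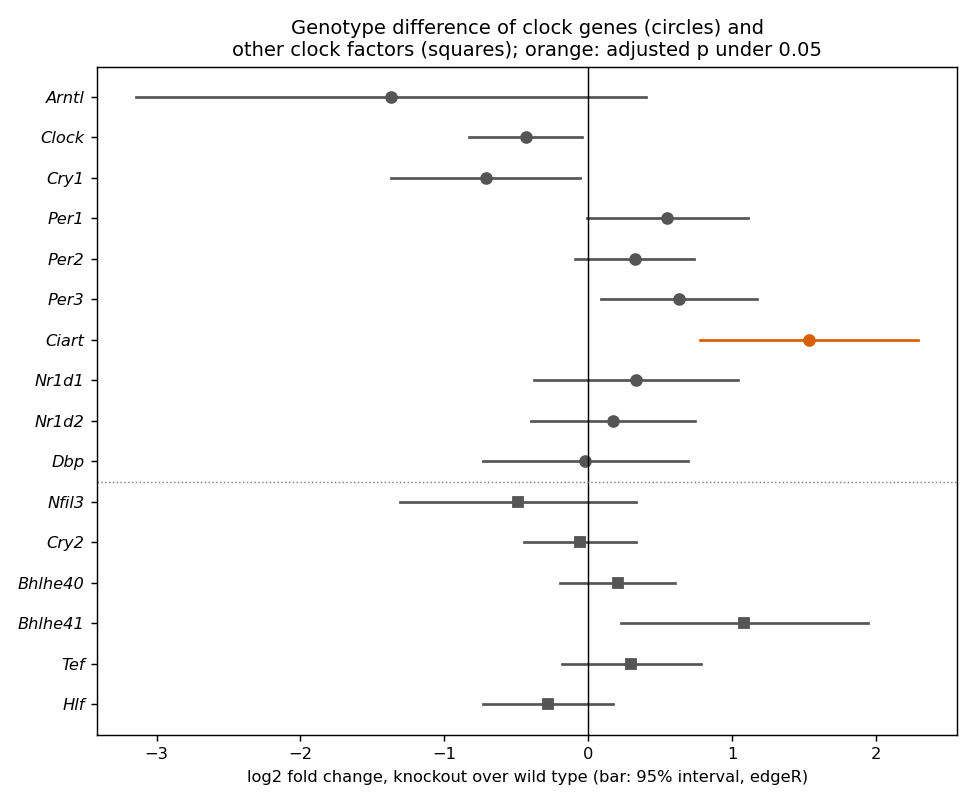
Log2 fold change of knockout over wild type (horizontal axis) with its unadjusted 95% interval for the 10 clock genes (circles) and 6 other clock factors (squares); orange marks an edgeR adjusted p under 0.05. Ciart, at 1.54, is the only orange point.

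The 3 Period genes encode the partners of CRY in the repressor complex, and their levels leaned higher in knockout without passing the test. Per1 (ENSMUSG00000020893, chromosome 11, 69095217 to 69109960, plus strand) had 75.2, 42.9 and 50.8 CPM in knockout 1, 2 and 4, against 42.7, 45.2 and 27.4 CPM in wild type 2, 4 and 11. Knockout 1 was high and wild type 11 low, and the 4 other libraries lay between 42.7 and 50.8 CPM. The difference was 0.55 (SE 0.25, edgeR adjusted p = 0.154).

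Per2 (ENSMUSG00000055866, chromosome 1, 91415982 to 91459324, minus strand) had 53.6, 45.1 and 36.0 CPM in knockout 1, 2 and 4, against 32.9, 36.6 and 38.1 CPM in wild type 2, 4 and 11. The genotypes overlapped through knockout 4, and here wild type 11 was not low (0.32, SE 0.19, edgeR adjusted p = 0.249). Per3 (ENSMUSG00000028957, chromosome 4, 151003652 to 151044665, minus strand) had 42.0, 30.5 and 20.3 CPM in knockout 1, 2 and 4, against 19.4, 21.7 and 18.8 CPM in wild type 2, 4 and 11. The wild types lay close together while the knockouts spanned more than 2-fold. Its difference was 0.63 (SE 0.24, edgeR adjusted p = 0.0979), and passed without knockout 4 (0.85, adjusted p = 0.00914).

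Knockout 1, with the largest mitochondrial share, was the highest knockout in all 3 Per genes, as it was in Ciart. Knockout 2, with the next largest share, was above knockout 4 in Per2 and Per3 and below it in Per1. The part of that share in these values cannot be told apart from that of genotype, since every knockout had a larger share than every wild type. With it as a covariate the values were 0.072 for Per1, -0.15 for Per2 and -0.25 for Per3, with edgeR adjusted p of 0.971, 0.887 and 0.804.

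Cry1 encodes the cryptochrome that represses BMAL1 and CLOCK late in the cycle. Cry1 (ENSMUSG00000020038, chromosome 10, 85131700 to 85185064, minus strand) had 6.03, 12.2 and 6.62 CPM in knockout 1, 2 and 4, against 10.3, 13.5 and 17.0 CPM in wild type 2, 4 and 11. Knockout 2 lay among the wild types, and wild type 11 was the highest library. The difference of -0.71 (SE 0.30, edgeR adjusted p = 0.119) passed without knockout 2 (-1.11, adjusted p = 0.0421) and with no low-count filter (-0.77, adjusted p = 0.0159). Its paralogue Cry2, which cycles less, had 32.3, 28.6 and 26.0 CPM in knockout 1, 2 and 4, against 33.7, 30.4 and 26.1 CPM in wild type 2, 4 and 11 (-0.055, adjusted p = 0.852).

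The second loop consists of the REV-ERB repressors, nuclear receptors that bind heme. Nr1d1 (ENSMUSG00000020889, chromosome 11, 98767932 to 98775333, minus strand) had 95.5, 37.3 and 81.9 CPM in knockout 1, 2 and 4, against 64.0, 66.3 and 40.5 CPM in wild type 2, 4 and 11. Knockout 2 and wild type 11 were the low libraries, 1 in each genotype, and the ranges overlapped (0.33, SE 0.32, edgeR adjusted p = 0.499). Nr1d1 shares 263 exonic bases with Thra on the opposite strand, 8.55% of its own; counting by strand is not stated, so some reads could belong to either gene. Thra had 7.22 to 14.6 CPM in knockout and 8.45 to 8.75 CPM in wild type.

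Nr1d2 (ENSMUSG00000021775, chromosome 14, 18204054 to 18239127, minus strand) had 107, 102 and 69.1 CPM in knockout 1, 2 and 4, against 86.2, 106 and 54.8 CPM in wild type 2, 4 and 11. The lowest library was again wild type 11, followed by knockout 4 (0.17, SE 0.26, edgeR adjusted p = 0.672). Unlike Nr1d1, it was not low in knockout 2. The direction of its small difference turned without wild type 11 (-0.063) and with library totals as the scaling (-0.013).

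Dbp encodes a PAR bZIP activator that carries the rhythm to metabolic genes of the liver through D-boxes. Dbp (ENSMUSG00000059824, chromosome 7, 45705088 to 45710203, plus strand) had 97.3, 82.2 and 139 CPM in knockout 1, 2 and 4, against 130, 137 and 55.6 CPM in wild type 2, 4 and 11. Wild type 11 was the lowest of the 6, and knockout 4 lay beside wild type 2 and 4. The means of 106 ± 29.3 and 108 ± 45.3 CPM in knockout and wild type (SD, n = 3 each) differed by -0.022 (SE 0.32, edgeR adjusted p = 0.970), with a 95% interval of -0.73 to 0.69 that leaves room for a difference in either direction. Dbp shares 539 exonic bases, 18.0% of its own, with Sphk2 on the opposite strand. Sphk2 had 28.3 to 34.2 CPM in knockout and 20.9 to 38.4 CPM in wild type, and it was highest where Dbp was lowest, in wild type 11.

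Set per kilobase of exon, so that genes can be compared, the levels ran from Dbp down to Arntl in both genotypes. In knockout the mean levels were 35.5 ± 9.80 CPM per kb for Dbp, 23.3 ± 9.91 for Nr1d1, 17.1 ± 3.81 for Nr1d2, 13.4 ± 4.75 for Ciart, 9.998 ± 2.98 for Per1, 7.67 ± 1.51 for Per2, 3.22 ± 1.13 for Per3, 2.48 ± 1.02 for Cry1, 0.900 ± 0.0706 for Clock and 0.0708 ± 0.0316 for Arntl (SD, n = 3). Neighbours in this order overlapped in their 3 libraries except Per2 with Per3, Cry1 with Clock and Clock with Arntl. In wild type the order was Dbp at 36.0 ± 15.1 CPM per kb, Nr1d1 at 18.5 ± 4.63, Nr1d2 at 15.2 ± 4.77, Per1 at 6.83 ± 1.71, Per2 at 6.13 ± 0.464, Ciart at 4.62 ± 1.83, Cry1 at 4.08 ± 1.01, Per3 at 2.08 ± 0.156, Clock at 1.22 ± 0.108 and Arntl at 0.180 ± 0.213 (SD, n = 3). There the neighbours without overlap were Nr1d2 with Per1, Cry1 with Per3, Per3 with Clock and Clock with Arntl. By these means, Ciart stood above both Per1 and Per2 in knockout and below both in wild type. In wild type 2, however, Ciart (6.18 CPM per kb) was above Per2 (5.61 CPM per kb).

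The clock genes also varied within each genotype. The median gap between the highest and the lowest wild-type library was 0.71 on the log2 scale (of CPM plus 0.5) for the 10 genes and 0.37 over all tested genes. In wild type, 3 of the 10, Arntl, Dbp and Ciart, spanned more than 2-fold, against 5.11% of all tested genes. In knockout, 3 of the 10, Per3, Nr1d1 and Ciart, did so, against 15.4%. Wild type 11 was the highest or the lowest wild type in 9 of the 10, but also in 79.9% of all tested genes. Its distance from the mean of wild type 2 and 4 had a median size of 0.67 over the 10 and 0.24 over all tested genes.

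Wild type 11 was higher than the mean of wild type 2 and 4 in Arntl (1.998 on the log2 scale), Cry1 (0.51) and Clock (0.093). It was lower in Dbp (-1.26), Ciart (-1.04), Nr1d2 (-0.80), Nr1d1 (-0.68), Per1 (-0.67) and Per3 (-0.12), and Per2 was at 0.13. Wild type 2 and 4 and the 3 knockouts all had more Dbp and less Arntl than wild type 11. These are values of 1 mouse and carry no test.

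**Figure D3:**
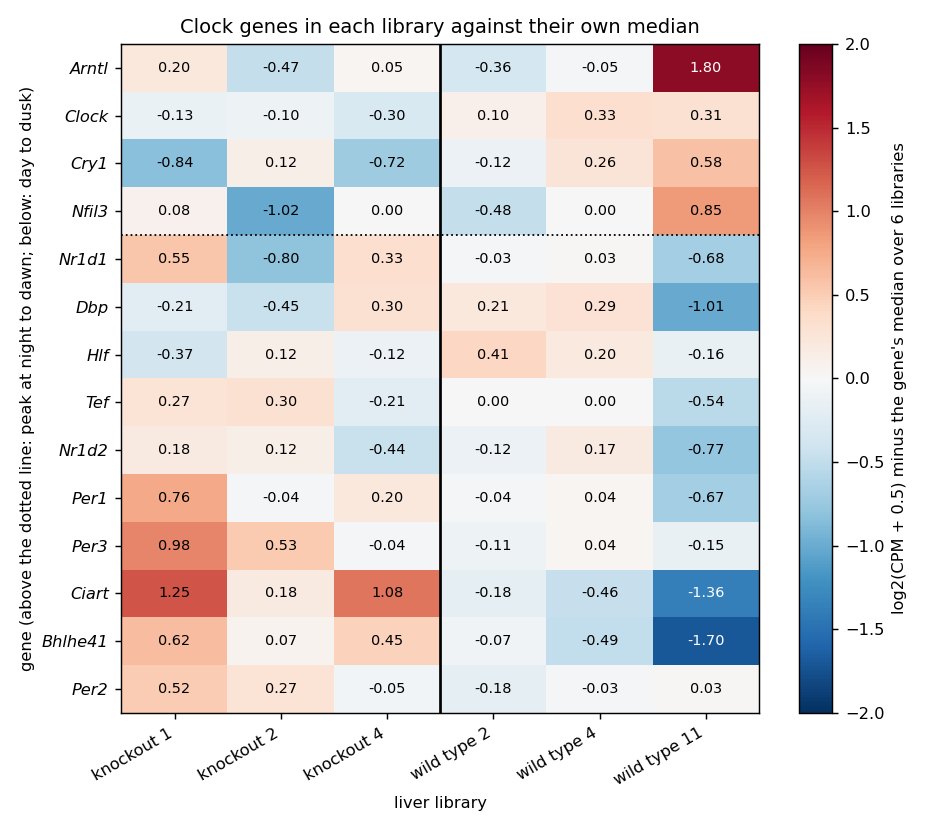
Log2 of CPM plus 0.5 in each library (columns, knockout left and wild type right) minus the gene's median over the 6 libraries. Rows are the clock genes and 4 of the 12 listed other clock factors. They are grouped by the time at which each is known to peak in mouse liver. Wild type 11 is red in the upper rows, up to 1.80 in Arntl, and mostly blue in the lower ones. In Clock, wild type 4 (0.33) is above wild type 11 (0.31).

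Ratios between clock genes within a library do not depend on how libraries are scaled. The log2 ratio of Dbp to Arntl was 7.06, 8.26 and 7.85 in knockout 1, 2 and 4, against 8.61, 8.01 and 4.12 in wild type 2, 4 and 11. The ratio of Nr1d1 to Arntl was 7.04, 7.12 and 7.09 in knockout 1, 2 and 4, against 7.59, 6.96 and 3.66 in wild type 2, 4 and 11. In both, wild type 11 lay far below the other 5 libraries. Against Arntl, Per1 lay at 6.401 to 7.32 in knockout and 3.10 to 7.005 in wild type, Per2 at 5.90 to 7.39 in knockout and 3.57 to 6.63 in wild type, and Per3 at 5.08 to 6.83 in knockout and 2.55 to 5.87 in wild type. Nr1d2 lay at 6.84 to 8.58 in knockout and 4.10 to 8.02 in wild type, Ciart at 5.73 to 6.08 in knockout and 0.88 to 5.39 in wild type, and Cry1 at 3.05 to 5.50 in knockout and 2.41 to 4.95 in wild type. Wild type 11 was the lowest library in all of them. All of these ratios share Arntl, which was at 3.20 CPM in wild type 11, so they are not separate observations. By level, wild type 11 was the highest wild type in Per2 (38.1 CPM) and the highest library in Cry1 (17.0 CPM).

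Because Arntl had few counts, ratios to Cry1 were taken as well, a choice made after the values were seen. The log2 ratio of Dbp to Cry1 was 4.01, 2.75 and 4.39 in knockout 1, 2 and 4, against 3.66, 3.35 and 1.71 in wild type 2, 4 and 11. For Ciart to Cry1 it was 2.68, 0.57 and 2.37 in knockout 1, 2 and 4, against 0.44, -0.23 and -1.53 in wild type 2, 4 and 11. For Nr1d1 to Cry1 it was 3.99, 1.61 and 3.63 in knockout 1, 2 and 4, against 2.63, 2.30 and 1.25 in wild type 2, 4 and 11. On this scale knockout 1 and 4 stood above every wild type for each of these genes, wild type 11 stood lowest, and knockout 2 lay below wild type 2 and 4 in Dbp and Nr1d1. These ratios all share Cry1, which was highest in wild type 11 (17.0 CPM) and lowest in knockout 1 (6.03 CPM).

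**Figure D4:**
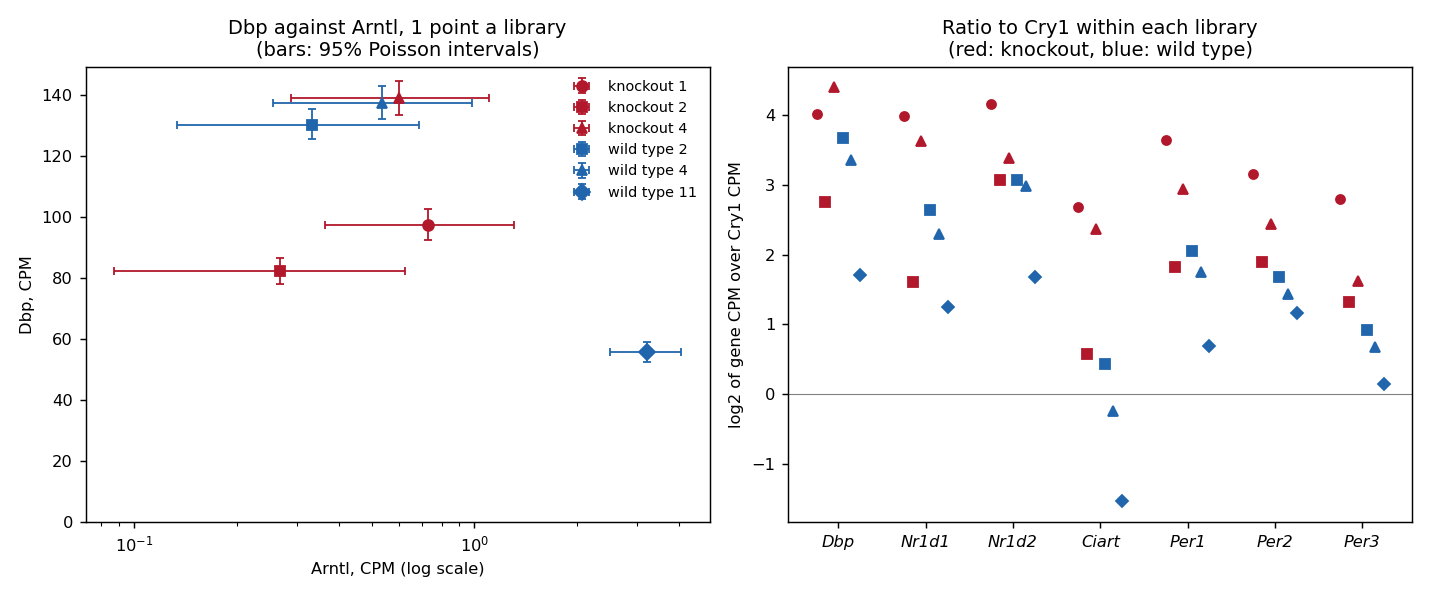
Left, Dbp (vertical axis, CPM) against Arntl (horizontal log axis, CPM) with 1 point a library and 95% Poisson intervals; right, log2 ratio of each day-phase clock gene to Cry1 within each library. Wild type 11, at 55.6 CPM of Dbp and 3.20 CPM of Arntl, stands away from the other 5 libraries on the left and lowest in every column on the right. The ratios on the right all share Cry1, which was highest in wild type 11.

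Over all 13304 tested genes, edgeR called 17.0% and DESeq2 called 2746, and 4531 had an unadjusted p under 0.05 in edgeR with DESeq2 size factors. The other clock factors showed 0 rises and 0 falls among the 10 tested of 12 listed (edgeR, median log2 fold change 0.086, 1 at an unadjusted p under 0.05; DESeq2 called 1). That gene was Bhlhe41 (DEC2), a repressor at E-boxes, with 11.1, 7.41 and 9.81 CPM in knockout 1, 2 and 4, against 6.65, 4.85 and 1.81 CPM in wild type 2, 4 and 11. Its genotypes did not overlap, and wild type 11 was its lowest library, as for Ciart (1.09, SE 0.39, edgeR adjusted p = 0.0779; DESeq2 adjusted p = 0.0301). Bhlhe40 (DEC1), its close relative, had 89.1 to 125 CPM in knockout and 87.6 to 91.9 CPM in wild type (0.20, adjusted p = 0.461).

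Nfil3 (E4BP4), a repressor at D-boxes that opposes DBP, had 15.8, 7.09 and 14.8 CPM in knockout 1, 2 and 4, against 10.5, 14.9 and 27.2 CPM in wild type 2, 4 and 11 (-0.49, edgeR adjusted p = 0.383). Wild type 11 was its highest library, as for Arntl. The PAR bZIP relatives of Dbp were Tef, with 172 to 246 CPM in knockout and 137 to 200 CPM in wild type (0.30, adjusted p = 0.361), and Hlf, with 39.5 to 55.4 and 45.7 to 67.9 CPM in knockout and wild type (-0.28, adjusted p = 0.357). Both were lowest among the wild types in wild type 11.

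Of 18 tested kinases, ligases, deubiquitinases and corepressors that act on clock proteins, 0 rose and 2 fell (median 0.016), a share of 11.1%, below the 17.0% of all tested genes. Ddb1, an adaptor of cullin 4 ubiquitin ligases, had 81.5, 75.9 and 115 CPM in knockout 1, 2 and 4, against 183, 188 and 150 CPM in wild type 2, 4 and 11 (-0.94, SE 0.21, edgeR adjusted p = 0.0157). Its groups did not overlap. Ncor1, the corepressor that REV-ERB recruits, had 47.8, 46.7 and 45.8 CPM in knockout 1, 2 and 4, against 76.4, 83.4 and 55.0 CPM in wild type 2, 4 and 11 (-0.61, SE 0.19, adjusted p = 0.0497). Ddb1 did not pass with knockout 4 alone (-0.60, edgeR adjusted p = 0.191), with the mitochondrial covariate (-0.56, 0.621), or when any 1 of wild type 2, wild type 4, knockout 1 and knockout 2 was left out (-0.91 to -0.82, 0.0583 to 0.0681). Ncor1 did not pass in the same fits, with -0.65 (edgeR adjusted p = 0.599) with the covariate and -0.64 to -0.50 (0.116 to 0.194) in those leave-outs. With knockout 4 alone it was at -0.64. Its call was also lost in 3 further edgeR fits, where Ddb1 still passed. These were a filter of 1 CPM in 3 libraries (adjusted p = 0.0511), DESeq2 size factors (0.0511) and mitochondrial genes removed (0.0532). Under limma-voom Ncor1 did not pass either (limma adjusted p = 0.0515), while Ddb1 did.

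Of 22 tested of 23 clock-controlled liver genes, 0 rose and 0 fell (edgeR, median -0.28, 5 at an unadjusted p under 0.05; DESeq2 called 0). Over all 13304 tested genes, edgeR called 17.0% and DESeq2 called 2746. An unadjusted p under 0.05 was held by 4531 genes in edgeR with DESeq2 size factors. The fits without wild type 11, knockout 1 and knockout 4 called 1691 of 13733, 804 of 13616 and 4046 of 13776 tested genes. Leaving out 1 library brought calls on genes named here after their values were seen. These were Wee1, a cell cycle kinase, without wild type 11, Tsku without knockout 1, and Alas1, Insig2 and Cyp7a1 without knockout 4. Rgs16, a regulator of G protein signalling picked in the same way, had 124, 167 and 131 CPM in knockout 1, 2 and 4, against 291, 111 and 51.1 CPM in wild type 2, 4 and 11. Its wild-type range took in all 3 knockouts.

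The genes closest in pattern to Dbp, by Pearson r of log2 CPM plus 0.5 over the 6 libraries, were Nrg4 (r = 0.99), a secreted neuregulin, Dcun1d2 (0.97) and Palmd (0.96). Nrg4, which is also on the list of clock-controlled genes, had 11.5, 8.86 and 14.5 CPM in knockout 1, 2 and 4, against 14.1, 13.9 and 5.53 CPM in wild type 2, 4 and 11. Closest to Arntl were Ndrg2 (0.98), Hus1 (0.98) and Acsl3 (0.98), an order set by wild type 11, where Acsl3 had 39.3 CPM, against 20.7 to 28.3 CPM in knockout. These r describe 6 libraries, are the largest of all tested genes with at least 1 CPM, and carry no p.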

How the data were processed

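RNA was sequenced from 6 livers, 3 Nogo knockout and 3 wild type. The authors deposited raw counts per gene, whole numbers with no normalization. Per the submitters' processing notes, reads were set on mm10. The sources used here name no aligner, counter or annotation and do not state strandedness. Libraries held 17568223 to 20902369 counts, and no pair of 1 genotype was a copy (chi-square over its degrees of freedom, 21.0 to 171). P-values set the genotype difference against the estimated spread between these mice.

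Counts were analysed in R 4.3.3 with edgeR 4.0.16 (TMM, filterByExpr, quasi-likelihood F test, no covariate), tested on simulated data, and with DESeq2 1.42.0 and limma 3.58.1 (voom) as alternatives. SE was taken as the size of log2 fold change over the root of F. Of 54232 identifiers, 54079 were in GENCODE M21 (mm10), which gave coordinates and exon lengths. Intervals of single libraries are exact Poisson at 95%.

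The genes and lists were chosen with earlier results of these data known. Named were the 10 genes, Rtn4, called members of 3 fixed lists, 7 fixed factors, overlapping genes and the 3 genes closest to Dbp and to Arntl in pattern. Wee1, Tsku, Alas1, Insig2, Cyp7a1 and Rgs16 were named after their values were seen. A further fixed factor is not reported here.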

Additional observations from a re-analysis of the deposited data

How the results depend on the processing

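Of 159 values of the 10 clock genes under 16 alternatives, 135 kept their sign and their side of the threshold. A call was lost in 4 and gained in 4. Sign changed in 16, of 6 genes none of which was called in the main fit (edgeR, TMM, filterByExpr, no covariate). The cause was not tested. The number of clock genes called higher, 1, was 0 with the mitochondrial share as a covariate and with knockout 4 alone, and 0 to 2 in the fits that left out 1 library. The number called lower, 0, was 2 with no low-count filter and 0 to 1 in those fits. With no low-count filter, 3330 of all 23915 tested genes were called, 1498 higher and 1832 lower. Other clock factors, 0 called, had 1 with no filter and 1 with DESeq2. The clock protein regulators, 2 called, had 1 under a low-count filter of 1 CPM in at least 3 libraries, with DESeq2 size factors, with mitochondrial genes removed and with limma-voom, 0 with the covariate and with knockout 4 alone, and 0 to 3 when 1 library was left out. Clock-controlled liver genes, 0 called, had 4 with no filter, 3 with the replicate block and 0 to 3 when 1 library was left out. Over all genes the 2268 calls became 0 with the covariate, 25 with knockout 4 alone and 630 to 4046 when 1 library was left out. Library totals moved the median of all genes to -0.16 and gave 690 higher and 1566 lower calls, against 1165 and 1103 with TMM.

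Sign changes among genes not called in the main fit, as log2 fold changes, were as follows. With the covariate, Per2 was at -0.15, Per3 at -0.25, Nr1d2 at -0.32, Dbp at 0.37 and Tef at -0.085. With the replicate block, where the difference rests on the libraries numbered 2 and 4, Nr1d1 was at -0.23 and Nr1d2 at -0.18. With library totals, Nr1d2 was at -0.013. With knockout 4 alone, Nr1d2 was at -0.26, Dbp at 0.36 and Tef at -0.054. With limma-voom, Dbp was at 0.053. When 1 library was left out, Arntl ranged over -1.84 to 0.27 (positive in the fit lacking wild type 11), Nr1d2 -0.063 (lacking wild type 11) to 0.38, Dbp -0.35 to 0.18 (positive in 4 fits) and Cry2 -0.16 to 0.024.

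Numbers 2 and 4 occur in both genotypes, and deviations of same-numbered libraries correlated at -0.049 and 0.058. These 2 values, from 3 libraries a genotype, cannot show whether same-numbered mice were paired. With the number as a replicate block, knockout 1 and wild type 11 each had a block of their own. The genotype difference in that fit thus rested on the libraries numbered 2 and 4. There Ciart was at 0.98 (edgeR adjusted p = 0.0232) and 1686 genes were called. Arntl had 5 to 11 counts in 5 libraries, so counting error is wide there. In the fit with knockout 4 alone, that single library is assumed to vary like the wild types.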
